A study of Mus musculus with 4 samples.

Results

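The proteasome genes examined here were the protein-coding mouse genes whose symbols begin with Psma, Psmb, Psmc, Psmd, Psme, Psmf or Psmg in the GENCODE annotation of mm10. The rule found 50 genes of 21755 protein-coding genes on the chromosomes that hold peaks, and it used the gene names alone. The binding of RBPJ at these genes was taken from alveolar macrophages (AMs), which live in the airspace of the lung and were sorted from bronchoalveolar lavage of WT C57BL/6J mice aged 9 wk. For each of RBPJ and input, the study prepared 2 libraries, numbered as replicates 1 and 2, by HT-ChIPmentation, which joins chromatin immunoprecipitation to tagmentation on beads. Each RBPJ library has a peak list, the inputs entered only through the authors' peak calling, and no other genotype or treatment was profiled. The labels do not say that the libraries came from separate mice, and whether cells of several mice were pooled is not given in the sources used here.

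The proteasome is the protease complex that degrades ubiquitinated proteins in the nucleus and cytosol. Its barrel, the 20S core, is built of stacked rings of α subunits (Psma genes) and β subunits (Psmb genes), and 3 of the β subunits carry the proteolytic sites. The 19S regulatory particle caps the core. Its ATPases (Psmc genes) unfold the substrate, and its non-ATPase subunits (Psmd genes) receive ubiquitin chains, remove them or hold the particle together. In cells exposed to interferon, Psmb9, Psmb10 and Psmb8 replace Psmb6, Psmb7 and Psmb5 in newly built cores, which gives the immunoproteasome that cuts peptides for MHC class I. RBPJ is the DNA-binding factor of Notch signaling, and its preferred site has the core TGGGAA, which reads TTCCCA on the opposite strand.

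The sequences that the results refer to are printed 5′ to 3′ on the strand of the gene, from the RefSeq genome GRCm38.p6, the assembly that mm10 names. The bases around the replicate 1 summit at the start of Psmb8, chr17:34197652-34197772 on the plus strand, are shown because this was the only immunoproteasome promoter with peaks of both libraries. The capitals mark a match to TTCNNNGAA, the form of site bound by STAT factors. A match to TGACGT in the same stretch is left in lower case.
Psmb8 summit: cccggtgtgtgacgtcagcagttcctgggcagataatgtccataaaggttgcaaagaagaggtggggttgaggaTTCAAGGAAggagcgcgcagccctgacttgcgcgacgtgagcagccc
All 3 immunoproteasome genes have an RBPJ core within the window from 250 bases before to 50 bases after the RefSeq start. The stretches below hold it in capitals, at chr17:34198086-34198115 (plus strand), chr17:34187501-34187530 (minus strand) and chr8:105938502-105938531 (minus strand).
Psmb8 core: agtcctccgctgTTCCCAgaagatgccccc
Psmb9 core: ttgcgtgaattTTCCCAtcccaggccccac
Psmb10 core: acctgagtttggTTCCCAacgcccacgtgg
Among the 42 members searched in RefSeq promoter windows, Psma1 and Psmc4 had an RBPJ core under peaks of both libraries. Their upstream sequence is chr7:114276117-114276266 and chr7:28050093-28050242, both on the minus strand, with the core in capitals.
Psma1 upstream: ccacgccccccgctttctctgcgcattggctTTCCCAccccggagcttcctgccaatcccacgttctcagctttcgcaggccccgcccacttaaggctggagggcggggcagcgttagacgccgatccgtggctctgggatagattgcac
Psmc4 upstream: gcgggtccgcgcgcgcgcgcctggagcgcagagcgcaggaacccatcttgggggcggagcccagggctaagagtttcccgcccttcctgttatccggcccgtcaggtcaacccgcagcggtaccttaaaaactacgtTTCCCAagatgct
An ETS core, CCGGAAG, is in capitals in the sequence around the replicate 2 summit of Psmd6, chr14:14120964-14121099 on the minus strand.
Psmd6 summit: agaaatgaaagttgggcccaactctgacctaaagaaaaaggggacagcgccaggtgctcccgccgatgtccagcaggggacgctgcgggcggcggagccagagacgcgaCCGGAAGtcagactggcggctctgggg
Psmb5 and Psmb6 have a match to TGACNNNGC (in capitals), the form of the antioxidant response element. Sites of this type are those through which NFE2L1 and NFE2L2 raise proteasome genes. The stretches are chr14:54617996-54618145 on the minus strand and chr11:70525207-70525356 on the plus strand.
Psmb5 upstream: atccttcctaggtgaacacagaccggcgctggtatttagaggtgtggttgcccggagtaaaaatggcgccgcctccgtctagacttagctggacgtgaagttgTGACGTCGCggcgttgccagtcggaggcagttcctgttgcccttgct
Psmb6 upstream: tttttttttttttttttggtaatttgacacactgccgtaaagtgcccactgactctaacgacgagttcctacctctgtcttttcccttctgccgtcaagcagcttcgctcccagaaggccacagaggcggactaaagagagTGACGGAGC
The last sequence surrounds the replicate 1 summit of the highest member region, upstream of Psmb3 at chr11:97702446-97702596 on the plus strand. The capitals are a tRNA gene of the RefSeq annotation.
Psmb3 summit: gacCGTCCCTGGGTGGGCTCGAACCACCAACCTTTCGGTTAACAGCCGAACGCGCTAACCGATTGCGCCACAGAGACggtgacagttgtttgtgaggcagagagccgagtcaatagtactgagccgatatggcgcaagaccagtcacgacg

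The libraries differed in the length of their lists, with 106228 peaks in replicate 1 and 47224 in replicate 2, so a gene with a peak in replicate 1 alone is given as such throughout. A consensus region is a run of overlapping peaks (at least 1 bp shared) that holds a peak of each library, and the libraries gave 25454 such regions. A promoter here is 1 kb either side of any transcription start site (TSS) of the gene. Fold is the enrichment of the peak summit over background that the authors' peak caller gave. The peak lists carry no read counts, and read depth was not used here. Shares over genes carry Wilson 95% intervals, which cover counting error only and not the spread between the 2 libraries. Among marker genes, 12 of 14 AM genes had a consensus region at the promoter, with no region at Marco and Krt79. The counts were 0 of 8 for T and B lymphocyte genes and 0 of 8 for neuronal genes. Over all protein-coding genes the share was 33.7%. The marker lists were chosen with earlier results of these data known, so these counts are descriptions and do not test the cell type.

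A consensus region lay at the promoter of 34 of the 50 proteasome genes (68%, 95% interval 54.2–79.2%), among them Psmb3, Psmd3, Psmc2, Psmb1, Psme2 and Psmg3. Over all protein-coding genes the share was 33.7%. With a −log10 q of at least 5 in each library 20 of the 34 remained (24.0% of all genes), and with summits within 100 bp 18 remained (22.6% of all genes). Of the genes just named, the summit limit removed Psmd3, Psmc2, Psmb1, Psme2 and Psmg3 and kept Psmb3. Replicate 1 had a peak at the promoter of 46 members (92%, 81.2–96.8%), against 46.1% of all genes. In replicate 2, a peak lay at the promoter of 35 members (70%, 56.2–80.9%), against 37.5% of all genes. The members were thus marked more often than genes at large in each library taken alone. No test was run on these shares. No member had a peak in replicate 2 alone, whereas 11 had a peak in replicate 1 alone. Of all 21755 genes, 370 had a promoter peak in replicate 2 alone and 2233 in replicate 1 alone. Psmd14, the 19S deubiquitinase, had a promoter peak in each library (fold 6.34 in replicate 1 and 4.69 in replicate 2), but the peaks did not overlap. Of all genes, 515 had promoter peaks of both libraries without a consensus region there. Psma8, Psmb11, Psme2b and Psmg4 had no promoter peak in either library.

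**Figure D1:**
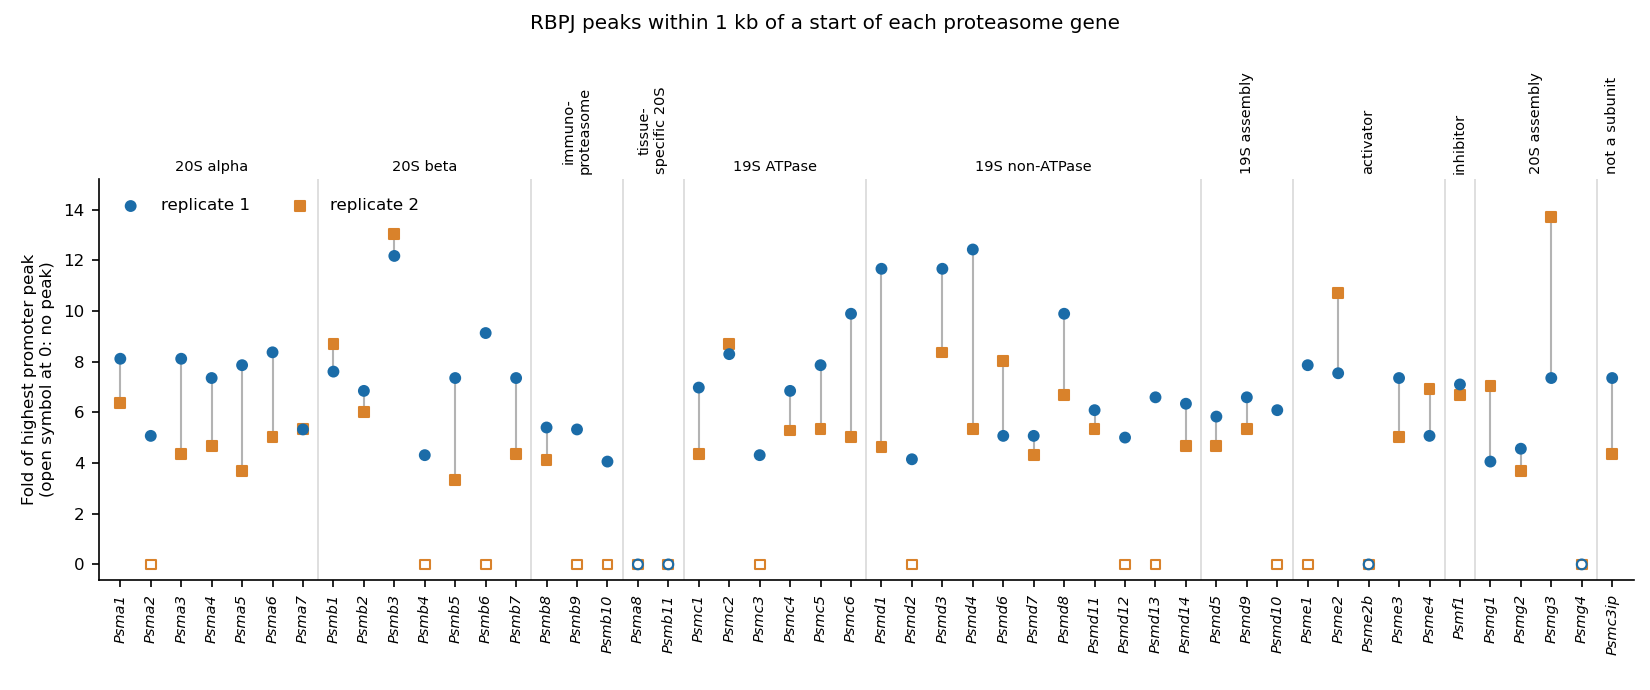
Fold of the highest promoter peak of each of the 50 genes in replicate 1 (blue circles) and replicate 2 (orange squares), grouped by subunit class; the vertical axis is linear, an open symbol at 0 means that no peak was called, and grey lines join the libraries of a gene. Psmb3 is high in both libraries (12.2 and 13.1), Psmd4 (12.4) and Psmd1 (11.7) are high in replicate 1, and Psmg3 (13.7) and Psme2 (10.7) are high in replicate 2.

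In the core particle, 11 of 14 constitutive genes had a consensus region (78.6%, 52.4–92.4%), against 33.7% of all genes. All 14 had a replicate 1 peak, against 46.1% of all genes. Of the α subunits, 6 of 7 had a consensus region. The highest of them by the lower fold of the libraries was Psma1 (fold 8.12 in replicate 1 and 6.36 in replicate 2), followed by Psma6 (8.37 and 5.02) and Psma4 (7.36 and 4.69). In replicate 1, 5 α genes lay between 7.36 (Psma4) and 8.37 (Psma6), and each of these was lower in replicate 2. Psma2 had fold 5.07 in replicate 1 and no replicate 2 peak. At Psma7 the region at the start had fold 4.06 in replicate 1 and 5.36 in replicate 2.

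Of the constitutive β subunits, 5 of 7 had a consensus region, against 33.7% of all genes. Psmb3, a structural ring subunit, ranked first among the members by the lower of its folds, with fold 12.2 in replicate 1 and 13.1 in replicate 2. Psmb1 (7.61 and 8.70) and Psmb2 (6.85 and 6.02), also ring subunits without a proteolytic site, came next. At Psmb1 the summits of the libraries lay 1350 bp apart within 1 wide region, so the libraries did not mark the same point. Its replicate 2 summit was 29 bp from the TSS of the divergent gene Tbp. In fold, the 3 catalytic subunits were less even between the libraries than Psmb3, Psmb1 and Psmb2. Those ring subunits were named for their high lower fold, which favours even folds, and the ring subunit Psmb4 had no replicate 2 peak. The values therefore do not set catalytic subunits apart from the others. Psmb5, the chymotrypsin-like subunit, had fold 7.36 in replicate 1 and 3.35 in replicate 2, where its −log10 q was 1.85, near the limit of the authors' threshold. Psmb7, the trypsin-like subunit, had fold 7.36 and 4.35, and Psmb6, the caspase-like subunit, had fold 9.13 in replicate 1 and no peak in replicate 2. Psmb6 was the strongest replicate 1 peak of any member that lacked a replicate 2 peak. Psmb4, the remaining ring subunit, had fold 4.31 in replicate 1 alone.

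Among the immunoproteasome genes, 1 of 3 had a consensus region (33.3%, 6.15–79.2%), near the 33.7% of all genes. All 3 had a replicate 1 peak, against 46.1% of all genes. With so few genes the interval of the consensus share spans most of the range. It includes the shares of the core and of all genes. Psmb8 had fold 5.41 in replicate 1 and 4.13 in replicate 2, in a region at chr17:34197613-34198012 that spans its TSS. Its summits lay 78 bp and 62 bp upstream of the TSS, 16 bp apart. Psmb9 had fold 5.33 in replicate 1, with the summit 281 bp downstream of its TSS, and Psmb10 had fold 4.06 in replicate 1, with the summit 275 bp downstream. Neither had a peak in replicate 2. In replicate 1, where each counterpart could be set side by side, the interferon-induced gene had the lower fold in every pair, with Psmb8 against Psmb5 at 5.41 and 7.36, Psmb9 against Psmb6 at 5.33 and 9.13, and Psmb10 against Psmb7 at 4.06 and 7.36. These pairs come from 1 library, so the differences have no replicate check. In replicate 2 the order of Psmb8 (4.13) and Psmb5 (3.35) was the other way round. At a −log10 q of at least 5 in each library, no immunoproteasome gene and 5 core genes kept a consensus region. The share of all genes at that limit was 24.0%.

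Psmb9 and Psmb8 lie in the MHC region on chromosome 17, 9957 bp apart, with Tap1, a subunit of the peptide transporter of MHC class I, between them. The Psmb9 TSS lies 38 bp from a TSS of Tap1, and the genes run in opposite directions, so the replicate 1 peak there belongs to both promoters. From 12 kb before to 26 kb after the Psmb9 start, replicate 1 had 9 peaks with fold 2.79 to 5.41, and replicate 2 had the 1 peak at Psmb8. Tap2, the partner of Tap1, had no peak within 1 kb of its TSS in either library.

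**Figure D2:**
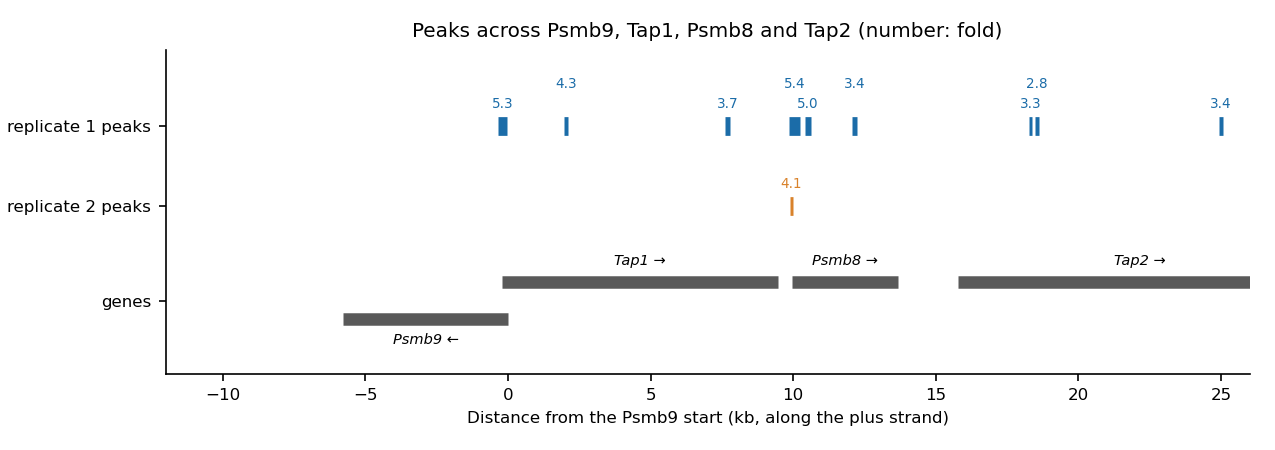
Peaks of replicate 1 (blue) and replicate 2 (orange) and gene bodies (grey, arrows give the direction of transcription) against the distance from the Psmb9 start in kb; the number above a peak is its fold. The only place with peaks of both libraries is the start of Psmb8, with fold 5.41 and 4.13.

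In the 19S regulatory particle, 12 of 17 genes had a consensus region (70.6%, 46.9–86.7%), against 33.7% of all genes. All 17 had a replicate 1 peak, against 46.1% of all genes. The interval of the consensus share overlaps that of the core over most of its length. Of the 6 ATPases, which form the ring that unfolds substrates, 5 had a region. The highest was Psmc2 (fold 8.30 in replicate 1 and 8.70 in replicate 2), followed by Psmc5 (7.87 and 5.36) and Psmc4 (6.85 and 5.29). Psmc3 was the exception, with fold 4.31 in replicate 1 at 658 bp upstream and no replicate 2 peak. At Psmc2 the summits of the libraries lay 1153 bp apart within 1 wide region, so the libraries did not mark the same point there. The Psmc5 region was closer to the TSS of its divergent neighbour Ftsj3.

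Of the 11 non-ATPase subunits, 7 had a consensus region, against 33.7% of all genes. Psmd3, a scaffold subunit, was the highest, with fold 11.7 in replicate 1 and 8.37 in replicate 2. Psmd8 followed with 9.89 and 6.69, and Psmd11 and Psmd4 had the same replicate 2 value of 5.36 with 6.09 and 12.4 in replicate 1. Psmd4 is a ubiquitin receptor of the particle. Psmd4 and Psmd1 (11.7 and 4.62) were among the highest in replicate 1 and at or below the median of members in replicate 2, which was 5.36. The non-ATPase genes without a consensus region were Psmd2 (fold 4.15), Psmd12 (5.01) and Psmd13 (6.60), each with a replicate 1 peak alone, and Psmd14. Of the 2 replicate 1 peaks at the Psmd12 promoter, the higher had its summit 1055 bp downstream of the TSS. Only the flank of that peak was inside the promoter window.

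The factors that build or attach to the proteasome were marked in part. Of the 19S assembly chaperones, Psmd9 (fold 6.60 and 5.36) and Psmd5 (5.84 and 4.69) had a region, and Psmd10 had fold 6.09 in replicate 1 alone. Of the chaperones that assemble the 20S core, Psmg3 had fold 7.36 in replicate 1 and 13.7 in replicate 2, the highest replicate 2 value of any member. Psmg1 was also higher in replicate 2 (4.06 and 7.03), the region of Psmg2 was low in both (4.06 and 3.68), and Psmg4 had no peak. Of the activators that open the core without ATP, Psme2 (7.55 and 10.7), Psme3 (7.36 and 5.02) and Psme4 (5.07 and 4.35 in its strongest region) had a region. Psme1, which forms the interferon-induced PA28 ring together with Psme2 and lies 5912 bp from it, had fold 7.87 in replicate 1 alone. The Psme2 summit of replicate 2 lay 537 bp upstream, 70 bp from the TSS of Rnf31, and that of replicate 1 lay 41 bp upstream of Psme2. Psmf1, an inhibitor of the core, had 7.10 and 6.69, with the summits 3 bp apart.

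The remaining matches of the symbol rule are tissue-restricted genes, a gene copy and a gene that is no subunit. Psma8, a core subunit of the testis, and Psmb11, the β subunit of the thymic cortex, had no promoter peak. Psme2b, an intronless copy of Psme2, had none either. Reads from near-identical copies can be lost to a filter on mapping quality, but whether this happened at Psme2b was not tested. Psmc3ip, which matches by symbol but encodes a recombination factor, had fold 5.07 in replicate 1 and 4.35 in replicate 2. Without it the count was 33 genes.

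**Figure D3:**
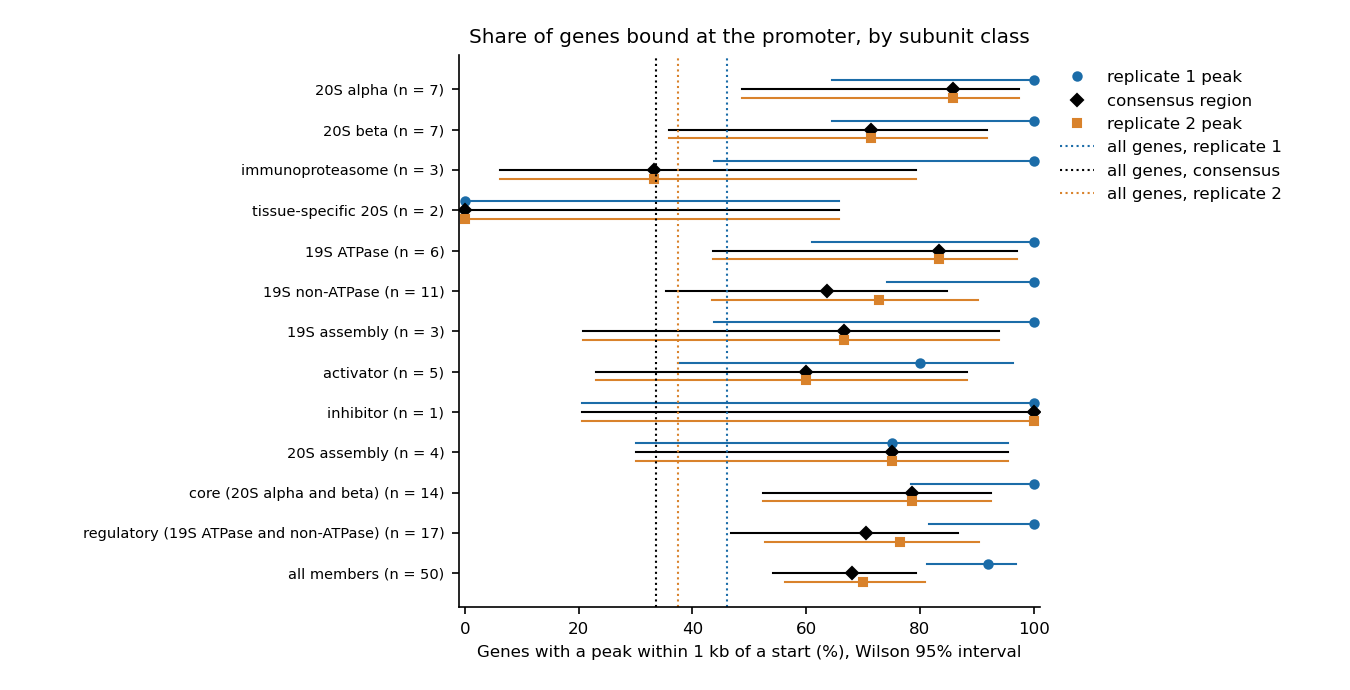
Share of genes in each subunit class (n in brackets) with a promoter peak in replicate 1 (blue), in replicate 2 (orange) and with a consensus region (black); bars are Wilson 95% intervals and dotted lines are the shares over all protein-coding genes. The core, at 78.6%, and the regulatory particle, at 70.6%, have intervals that overlap each other and lie above the 33.7% of all genes, while the interval of the 3 immunoproteasome genes includes it.

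How high the members' peaks stood among those at other genes depended on the library. The median fold of the highest promoter peak was 7.04 in the members and 6.34 in all genes in replicate 1, and 5.36 and 5.69 in replicate 2. Over the 34 members with a region, the median of the lower fold was 5.02, against 5.58 over the 7324 genes with a promoter region. By rank among these genes, 1 member was in the top 10%, 6 in the top 25%, 10 in the upper 50% and 12 in the bottom 25%. Among genes with a replicate 1 promoter peak, 28 of 46 members were in the upper 50% by fold. Among genes with a replicate 2 promoter peak, 13 of 35 were. Psmb3 was the only member in the top 10% of both rankings, at the percentiles 91.4 and 97.2. Psmg3 was at percentile 61.7 in replicate 1 and 97.6 in replicate 2, and Psmd1 was at 89.8 and 23.8. Across the 34 members, the folds of the libraries were related with Spearman's rho of 0.371, against 0.602 across the 7324 genes, given as a description since genes are not replicates. Fold came in steps of 0.254 in replicate 1 and 0.335 in replicate 2 for most peaks, so members often share a value, and differences of this size cannot be read.

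**Figure D4:**
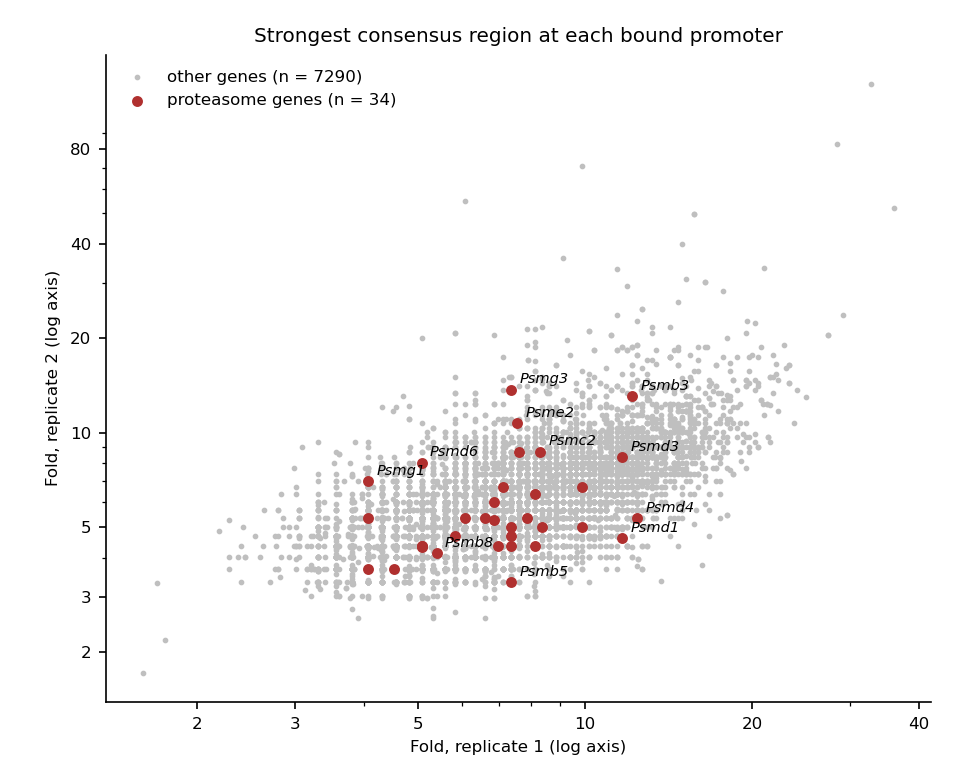
Fold of the strongest consensus region at each promoter in replicate 1 and replicate 2, both on log axes, for the 34 proteasome genes (red) and 7290 other genes (grey). The proteasome genes spread through the cloud, with Psmb3 (12.2 and 13.1) and Psmd3 (11.7 and 8.37) highest by the lower fold.

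Members lacking a replicate 2 peak had weaker replicate 1 peaks. The median replicate 1 fold was 7.36 in the 35 members with a replicate 2 promoter peak and 5.07 in the 11 without, whose values ran from 4.06 (Psmb10) to 9.13 (Psmb6). Over all genes the medians were 7.10 and 4.57. Of the members with a replicate 1 peak, 76.1% had a replicate 2 peak, against 77.7% of all such genes. The share of members that recurred in the shorter list was therefore near that of genes in general.

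The summits sat close to the start and mostly upstream of it. The median summit lay 134 bp upstream of the TSS in replicate 1 and 53 bp upstream in replicate 2, against 78 bp and 59 bp over all genes with a region. Between 300 bp upstream and 100 bp downstream lay 27 and 28 of the 34 members' summits (79.4% and 82.4%), against 59.1% and 59.5% of all genes. In their strongest region, Psmb3, Psma5 and Psme4 had summits over 500 bp away in both libraries. Psme4 had a second consensus region nearer its start, with summits at −348 bp and −140 bp. Its folds were 3.96 in replicate 1 and 6.93 in replicate 2, the latter the highest replicate 2 promoter peak of Psme4. At Psma5 the region lay within the first intron, 1385 bp and 889 bp downstream, although replicate 1 had a separate and higher peak (fold 7.87) at 124 bp. The summits of the libraries were within 100 bp of each other at 16 of 34 members (47.1%), against 55.5% of all genes, with Psmb3, Psmf1 and Psmc5 at 2, 3 and 4 bp.

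**Figure D5:**
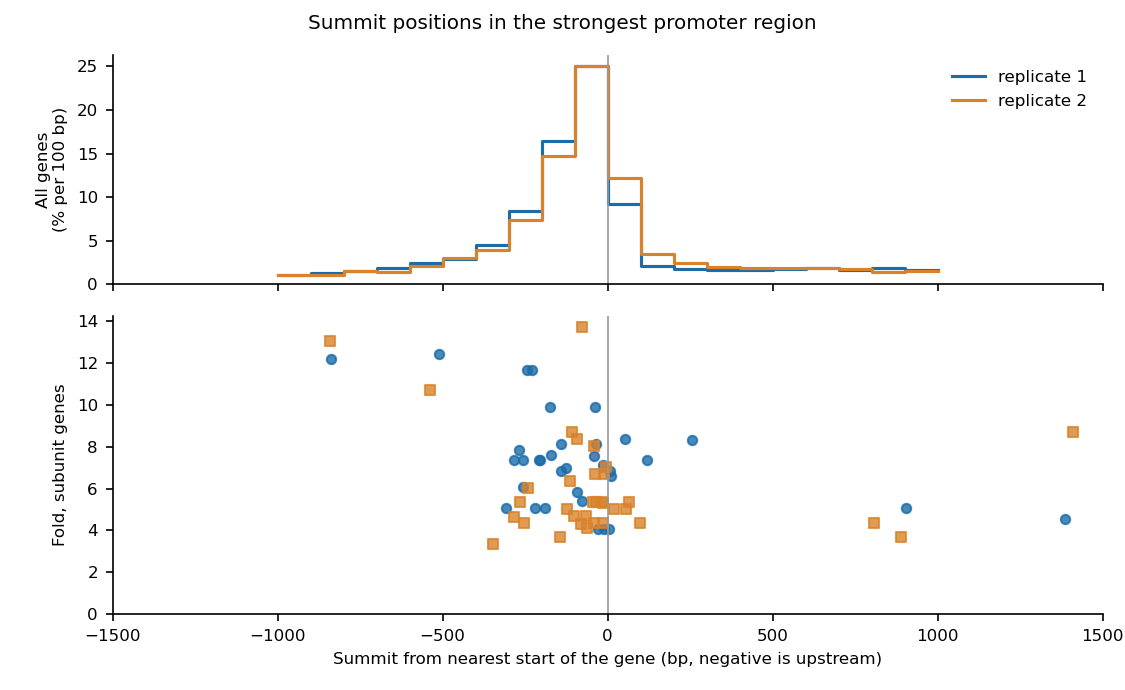
Upper panel, share of all 7324 genes per 100 bp of summit position within 1 kb of the TSS; lower panel, fold against summit position for the 34 proteasome genes, in replicate 1 (blue) and replicate 2 (orange). Most summits of the proteasome genes fall in the band from 300 bp upstream to 100 bp downstream, and the high points near −840 bp are Psmb3.

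The Psmb3 region, at chr11:97701731-97703572, was apart in place as well as in height. Its summits lay 838 bp and 840 bp upstream of the Psmb3 TSS. They lay 39 bp and 37 bp outside the 5′ end of a tRNA-Asn gene, n-TNgtt8. This tRNA gene is at chr11:97702449-97702522 on the minus strand, and its sequence is in capitals above. No other member region held a tRNA gene. Over all genes, the strongest region of 34 of 7324 genes (0.464%) held one. Of 403 tRNA genes in the RefSeq annotation, 188 (46.7%) lay under a consensus region, and the regions holding them had a median lower fold of 9.71, against 4.69 over all consensus regions. The part of the tRNA gene in the Psmb3 value was not tested.

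The RBPJ core TGGGAA was searched on both strands from 250 bases before to 50 bases after the RefSeq start, in the 42 of 50 members matched in that table. It was found in 12 members (28.6%), against 27.3% of 16433 genes, so the members held it about as often as other genes. By binding, 5 of 28 members with a consensus region and 7 of 14 without one held it, against 26.1% of all genes with a region and 27.9% of the others. Psmb8, Psmb9 and Psmb10 were among them, as were Psme1 and Psme2. At Psmb8, however, the core lay outside the peaks of both libraries, 310 bp downstream of the GENCODE TSS, since the RefSeq start there lies 405 bp downstream of that TSS. The TTCNNNGAA match of the Psmb8 summit sequence lay 18 bp from the replicate 1 summit and 2 bp from that of replicate 2. Over all genes with a region, 6.47% and 6.28% had this form within 100 bp of the summit in replicates 1 and 2. The Psmb8 summits also had TGACGT within 100 bp in both libraries, as had 10.6% and 9.72% of genes. The Psmb9 core lay 33 bp from its replicate 1 summit and 248 bp downstream of the GENCODE TSS, since the RefSeq start lies 434 bp downstream. The stretches printed for the Psmb8 and Psmb9 cores lie wholly in annotated exons. The Psmb10 core lay outside the replicate 1 peak. Of the 12 members with a core, 8 had it under a replicate 1 peak and 2 under a replicate 2 peak. At Psma1 the core coincided with the replicate 2 summit and was 79 bp from that of replicate 1, and at Psmc4 it was 10 bp from the summit of replicate 1 and 39 bp from that of replicate 2. The longer form CGTGGGAA was in no member and in 1.05% of genes.

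Other elements were described in the same windows. The ETS core CCGGAAG was in 15 of 42 members (35.7%), against 13.4% of all genes and 25.5% of genes with a consensus region. Of the members, 12 of 28 with a region and 3 of 14 without held it. In windows of 201 bases centered on the summits, 12 of 34 members (35.3%) had it at replicate 2 summits, against 17.1% of genes, but 2 of 34 (5.88%) at replicate 1 summits, against 14.8%. The libraries therefore differed in this, and the example of Psmd6 has the core 37 bp from the replicate 2 summit and 186 bp from that of replicate 1. In the same summit windows the RBPJ core was in 5 of 34 members (14.7%) in each library, against 18.1% of genes in each. The antioxidant response element TGACNNNGC was in 6 of 42 promoters (14.3%), against 2470 of 16433 genes. At Psmb6 it lay 10 bp from the replicate 1 summit, and at Psmb5 it lay 191 bp from it. At Psmb5 it overlaps a match to TGACGT. The GC box GGGCGG was in 54.8% of members and 51.3% of genes, the CCAAT box in 35.7% and 42.2%, and the interferon element GAAANNGAA in 16.7% and 9.48%. The STAT form TTCNNNGAA was in 7.14% and 9.05%. The Psmb8 match in this window, TTCCCAGAA, overlaps the RBPJ core outside the peaks. It is not the match at the Psmb8 summits, TTCAAGGAA. The forms GCATGCGC (NRF1) and AAGATGGC (YY1) were each in 3 members, 7.14%, against 4.11% and 3.64% of genes. TGACGT was in 4 members, 9.52% against 9.93%, and ACTACAA (ZNF143) in 2, 4.76% against 4.30%. A match is a description of the letters in the window.

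CpG content moved with binding over all genes. With promoters divided by their ratio of observed to expected CpG (below 0.35, 0.35 to 0.75, and above), 6.09%, 34.9% and 60.1% of all genes had a consensus region. Of the members, 0 of 2 in the low class (Psmb10 and Psme2b), 14 of 25 in the middle class and 20 of 23 in the high class had one. The median ratio was 0.722 in the members and 0.610 in all genes, and its part in the members' share was not tested. Psmb10 was thus the only immunoproteasome gene of low CpG content. A divergent partner gene within 1 kb was found for 10 members (20%), against 9.08% of genes, among them Mrpl32 at Psma2, Ss18l1 at Psma7, Tbp at Psmb1, Dnajc2 at Psmc2, Atg4a at Psmd10, Sirt3 at Psmd13 and Cep76 at Psmg2. Of the 10, 6 had a consensus region (60%), against 72.1% of all genes with such a partner, and of the other 40 members 28 had one (70%), against 29.8% of genes without such a partner. Binding at a shared promoter cannot be assigned to either gene from peaks alone.

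When each consensus region was assigned to the nearest protein-coding TSS, 34 members (68%) had at least 1 region, against 40.5% of all genes. The 51 regions so assigned lay at a median of 294 bp from the TSS, against 5708 bp for all 25454 regions. Only 12 of the 51 (23.5%) were over 1 kb away, against 69.3%. The members thus had few regions beyond the promoter, with a mean of 1.5 regions per gene against 2.89, and 23 of the 34 had a single region. Of these distant regions, 4 were high in replicate 1. A region 16257 bp upstream of Psma1 had fold 14.7 in replicate 1 and 5.69 in replicate 2, and a region 5164 bp upstream of Psma3 had 14.7 and 7.70. Within introns of Psma6, regions 3488 bp and 5171 bp downstream of a TSS had 12.2 and 7.36, and 11.9 and 6.69. These values were above those of the promoter regions of the same genes in at least replicate 1. The other regions over 1 kb away were lower in replicate 1. Psma1 had a further region at 40410 bp upstream (5.66 and 6.69), Psma6 at 23036 bp upstream (6.34 and 4.02), Psmd1 at 5098 bp upstream (3.55 and 6.69) and Psmd4 at 10557 bp upstream (4.82 and 3.35). Downstream of the TSS, Psmd8 had a region at 1655 bp (3.40 and 5.02), Psmd14 at 12396 bp in its intron (3.30 and 5.02) and Psmg1 at 59125 bp (6.80 and 3.79). The midpoint of the Psma5 region was at 1079 bp. Nearness does not show which gene a region acts on.

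Genes that work with the proteasome but carry other names were marked as well. Of 10 genes for further subunits, assembly and bound enzymes (Adrm1, Uchl5, Usp14, Sem1, Pomp, Ecpas, Akirin2, Txnl1, Ube3c and Zfand5), all 10 had a consensus region at the promoter. The share over all protein-coding genes was 33.7%. This and the following lists were chosen with earlier results of these data known, so their counts are descriptions. The highest were Sem1, a small 19S subunit (fold 12.2 in replicate 1 and 9.37 in replicate 2), Zfand5, which activates proteasomes (8.63 and 8.37), and Akirin2, which brings proteasomes into the nucleus (10.9 and 7.70). The 4 genes of the pathway that raises proteasome transcription all had a region. They were Nfe2l2 (14.2 and 10.04), the NFE2L1 protease Ddi2 (6.60 and 5.69), Nfe2l1 (5.07 and 5.36) and the deglycosylase Ngly1 (3.55 and 5.94). These are folds within the strongest region. Outside it, replicate 1 had a higher promoter peak at Nfe2l1 (12.9), Ngly1 (5.33) and Zfand5 (9.43).

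Of 9 genes for ubiquitin, its shuttle factors and substrate unfolding, 7 had a region, against 33.7% of all genes. The polyubiquitin gene Ubb (16.0 and 18.7) was higher than any proteasome gene in both libraries, and the shuttle gene Ubqln1 had 17 and 9.71. Uba1 had no promoter peak and Ubqln2 had fold 3.04 in replicate 1 alone. Of 8 genes of MHC class I processing, 4 had a region, against the same 33.7% of all genes. Among them were B2m, the light chain of MHC class I (14.7 and 10.4), and the interferon factor Irf1 (5.84 and 6.02). Tap1 (5.33) and Erap1 (4.57) had a replicate 1 peak alone, and Tap2 and Nlrc5 had no promoter peak.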

How the data were processed

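RBPJ HT-ChIPmentation in WT AMs gave 2 RBPJ libraries and 2 input libraries. According to the methods and the submitters' processing notes, the authors demultiplexed reads with bcl2fastq (2.20.0.422) and CASAVA, trimmed them with Cutadapt, aligned them to mm10 with Bowtie2, kept proper, non-duplicate pairs of high mapping quality with SAMtools, and called peaks per library with MACS3 against input at a q of 0.05. The deposited lists give each peak's summit, fold enrichment (a ratio over background), −log10 p and −log10 q. The score column was not used.

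Consensus regions, promoter overlap (1 kb) and nearest TSSs were computed in Python 3.11.15 with pandas 2.3.3 and numpy 2.4.6, using GENCODE vM21 basic transcripts. Peaks lay within the GRCm38 chromosome lengths. The interval code was checked on simulated peaks. Shares carry Wilson 95% intervals. No test was run between conditions, because there was 1 condition. Members, classes, lists and motifs were chosen with earlier results of these data known. Named genes were the immunoproteasome genes and their counterparts, up to 3 members per class with the highest lower fold, members without a consensus region and members with a region over 1 kb away, plus, in the other lists, up to 3 genes with the highest lower fold and those without a region. A gene or summit named beyond this rule (for example Psmd1, Psmg1, n-TNgtt8) was chosen after its values were seen, as were the summit-window motif counts and the tRNA comparison. Some genes that this rule names are not reported here. Promoter sequences matched 42 of 50 members in the RefSeq table, which had no entry for Psma8, Psmb1, Psmb2, Psmb7, Psmc3, Psmd3, Psmd7 and Psmg2. A filter on −log10 q of at least 5, summit distance, list length, promoter width, annotation and single libraries were tried as alternatives.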

Additional observations from a re-analysis of the deposited data

How the results depend on the processing

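Requiring a −log10 q of at least 5 in each library lowered the members with a consensus region at the promoter from 34 to 20 (all genes 24.0%), core genes to 5, immunoproteasome genes to 0 and members nearest to a region to 20, and regulatory genes from 12 to 9. Requiring summits within 100 bp gave 18 members (all genes 22.6%), 5 core and 6 regulatory genes and 18 nearest members, and kept Psmb8. The q threshold removed Psmb5, Psmb7 and Psmb8 among others, and the summit distance removed Psmb1, Psmc2, Psmd3 and Psmg3 among others. Leaving out each RBPJ library in turn gave 35 to 46 members, 11 to 14 core, 13 to 17 regulatory and 1 to 3 immunoproteasome genes, 34 to 46 nearest members and a median fold of 5.36 to 7.04. The upper values were those of replicate 1, the longer list; with it alone the median of members (7.04) was above that of all genes (6.34), whereas it was below that of all genes in the main result and with replicate 2 alone. The cause was not tested. The other recomputed values (39 planned and 8 from 2 alternatives chosen after seeing the data) moved by less than the limits set. No paired analysis was possible because the input libraries have no values here and no group was tested against another. Read depth was not used here, and its part in the absence of peaks from replicate 2 was not tested.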
